A study of Mus musculus with 12 samples.

Results

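The comparison described here sets mouse bone marrow-derived dendritic cells (BMDCs) that carried a Pde5 knockout label and had been given lipopolysaccharide (LPS) against unstimulated wild-type (WT) BMDCs. It takes the 4 libraries whose labels name these groups, 2 per group, of the 12 RNA-seq libraries of the series. The other libraries are 2 of unstimulated BMDCs labelled Pde5 knockout, 2 of WT BMDCs given LPS and 4 of dendritic cells sorted from tumors, and the last were not used here. LPS was given at 200 ng/ml for 12 h, and the labels of all BMDC libraries also give a time of 9 days. By their labels all BMDC groups share the bone marrow source and differ in the genotype label and in LPS. The groups compared are therefore separated by 2 labelled things, the genotype label and the stimulus. A difference that the labels do not record cannot be told apart from these. The labels name neither the strain, the age of the mice nor the part of Pde5a that was deleted, and they describe the cells only as immune cells from bone marrow. Whether the 2 libraries within a group stem from different mice or from different culture dishes is not stated; every p-value then rests on the variation among these libraries, and that variation may be technical.

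BMDCs are antigen-presenting cells grown from bone marrow in culture. LPS, a component of the wall of Gram-negative bacteria, binds Toll-like receptor 4 and starts NF-kB and interferon signalling, after which dendritic cells make cytokines, raise costimulatory molecules and stop taking up antigen. Pde5a encodes a phosphodiesterase that degrades cGMP, the second messenger made by guanylate cyclases in response to nitric oxide and natriuretic peptides.

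The 4 libraries held 16.1 to 17.4 M counts, and 13072 of 32190 gene symbols had enough counts in the 8 BMDC libraries for a test. Values are CPM (counts scaled to 1 M of the library total), given for both libraries of a group with the WT unstimulated group first, and each log2 fold change is given with its standard error (SE). Pde5a itself was weakly counted, with 55 and 37 counts at the WT baseline and 22 and 43 under LPS with the knockout label, and its log2 fold change was -0.36 (SE 0.498, edgeR adjusted p = 0.588). The groups overlapped in CPM, so the count of Pde5a did not separate the labels, and the genotype is given as labelled throughout. Of a core conventional dendritic cell list, 17 of 17 genes reached 1 CPM in at least 1 of the 8 BMDC libraries. Their sum was 19610 to 20500 CPM in the WT unstimulated libraries and 13850 to 14240 CPM in the LPS knockout-labelled ones. A list of 29 monocyte and macrophage markers summed to 9388 to 13070 and to 3089 to 5738 CPM, neutrophil markers to 181 to 290 and 112 to 113 CPM, and B cell markers to 164 to 262 and 64.3 to 95.5 CPM. In RNA from whole cultures, fewer cells of a type and less RNA per cell cannot be told apart.

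The unstimulated libraries labelled knockout stood apart from their label. Over all tested genes they lay at a mean root-mean-square log2 distance of 0.543 from the WT LPS libraries and of 0.790 from the WT unstimulated ones. No count below compares against these libraries unless it says so, but they entered the fit that estimates the spread. Without them the comparison called 5490 genes in place of 5604.

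The knockout-labelled LPS libraries were the farthest of the BMDC groups from the WT unstimulated baseline. The 4 pairs of libraries lay at distances of 0.994 to 1.07 (mean 1.03), against 0.445 between the 2 libraries labelled LPS knockout and 0.482 between the 2 WT unstimulated ones. The WT LPS libraries, compared with the same baseline, lay at 0.897 to 1.07 (mean 0.970). These ranges overlap, and both are above the distance of 0.437 to 0.615 (mean 0.510) between the libraries labelled LPS knockout and the WT LPS libraries. On the first principal component, which held 63.4% of the variance, the WT unstimulated libraries scored -66.6 and -76.6, the LPS knockout-labelled ones 36.3 and 40.7 and the WT LPS ones 34.4 and 24.9.

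**Figure D1:**
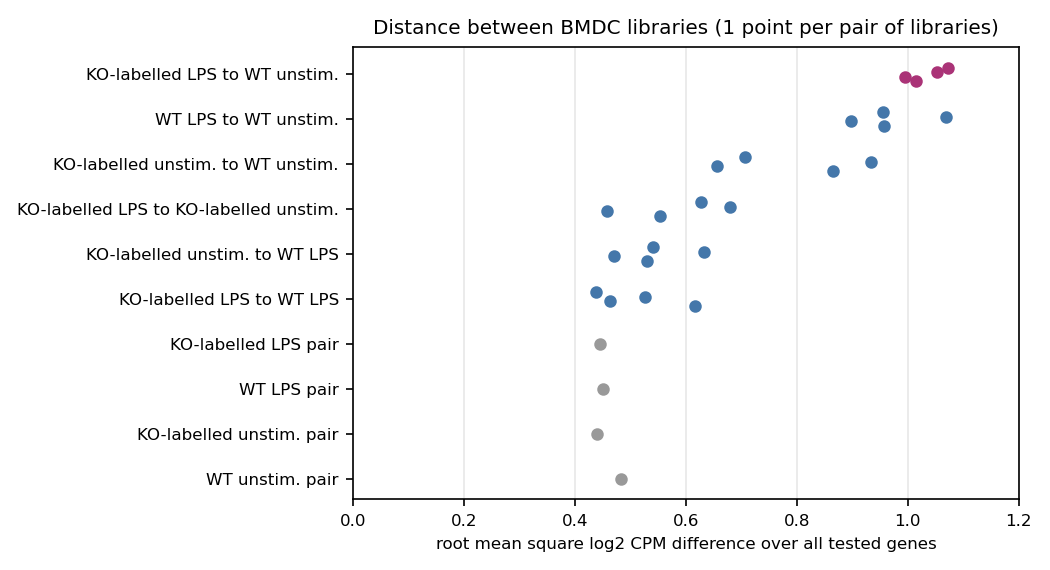
Root-mean-square difference in log2 CPM over the 13072 tested genes between BMDC libraries, 1 point per pair of libraries; grey points are pairs within a group, and purple points are the pairs of the comparison described here. The 4 purple points sit between 0.994 and 1.07, above every pair within a group (0.439 to 0.482).

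Of the 13072 genes tested, 5604 (42.9%) passed an edgeR quasi-likelihood test at an adjusted p under 0.05, 2877 (22%) higher and 2727 (20.9%) lower in the libraries labelled LPS knockout. Of the genes that passed, 1128 higher (8.63% of those tested) and 1221 lower (9.34%) had an estimate over 2-fold, and 201 and 94 one over 8-fold. A test against a 2-fold change (glmTreat) called 471 higher and 259 lower. The 2 groups did not overlap in 9834 genes (75.2%). The 4 largest increases among well-expressed named genes were of Mgarp, Slfn1, Gstt1 and Nos2, and the 4 largest decreases of Hpgd, Dmpk, Mamdc2 and Ppbp, each described further on. With 2 libraries against 2 an exact permutation test cannot go below p = 0.333, so all tests rest on edgeR, which pools the spread over genes and over the 8 BMDC libraries. The number of calls depended on single libraries: 3723 genes passed without the second library labelled LPS knockout, 3747 without the first and 3860 without the second WT unstimulated library. Scaled by library size alone, 5909 genes passed, and the share of calls that were higher moved from 51.3% to 34.5%, with the median log2 fold change of all genes at -0.20 in place of -0.02.

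**Figure D2:**
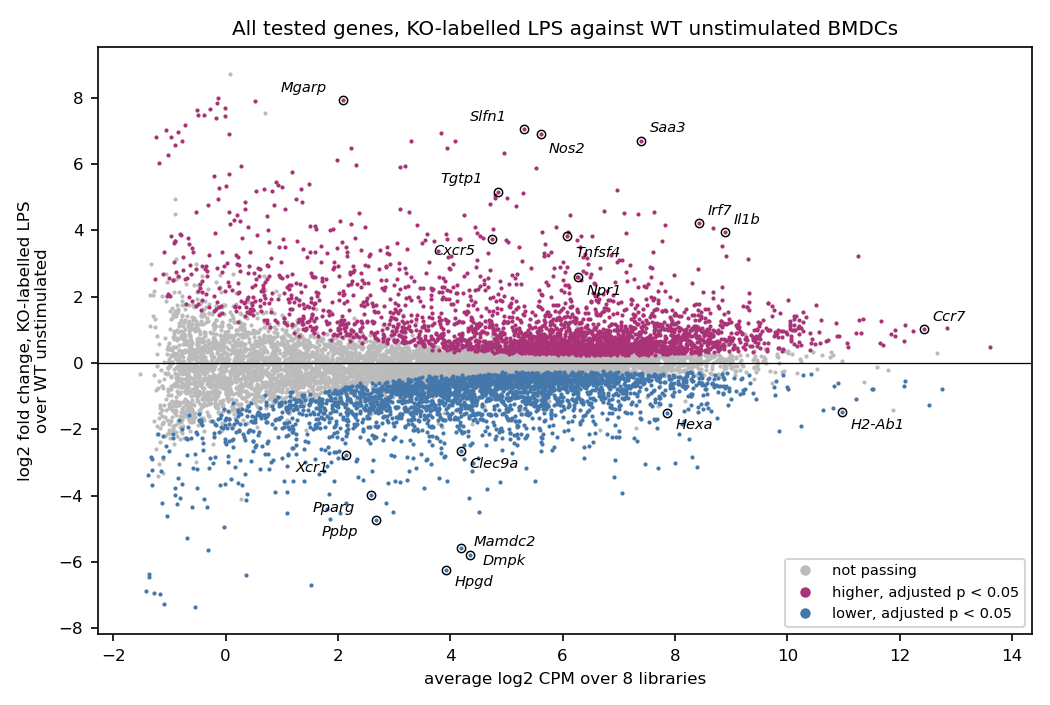
Each point is 1 of the 13072 tested genes, placed by its average log2 CPM over 8 libraries (horizontal axis) and its log2 fold change between the libraries labelled LPS knockout and the WT unstimulated libraries (vertical axis); purple and blue points passed at an adjusted p under 0.05. Named genes of the text are circled; Mgarp, Slfn1, Nos2 and Saa3 lie above 6 and Hpgd below -6 on the log2 scale.

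Genes induced by type I interferon rose almost as a whole. Of 39 tested members of a type I interferon list, 38 rose and 0 fell, against 22% of all tested genes that rose, and the median log2 fold change was 2.76 against -0.02 over all genes; the remaining member, Samd9l, had 0.63. Irf7, the transcription factor that amplifies interferon production, was at 21.2 and 32.2 CPM in the WT unstimulated libraries and at 432 and 444 CPM in the libraries labelled LPS knockout (log2 fold change 4.22, SE 0.274, adjusted p 0.000191 in edgeR). Both libraries labelled LPS knockout lay far above both WT unstimulated ones. Slfn1, a Schlafen family gene, was at 0.355 and 0.62 against 58.5 and 57.4 CPM (log2 fold change 7.06, SE 0.456, adjusted p 0.000191 in edgeR), and its relative Slfn4 was at 0 and 0.434 against 20.4 and 19.6 CPM (log2 fold change 6.69, SE 0.716, adjusted p 0.000687 in edgeR). Both were nearly uncounted at baseline. In WT BMDCs given LPS, 38 of the 39 rose as well (20% of all tested genes rose there), with a median of 2.98, a comparison that shares the baseline libraries. Between the libraries labelled LPS knockout and the WT LPS libraries, which were 595 and 497 CPM for Irf7, the list's median log2 difference was -0.34, and 0 of its members passed.

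The promoters of 3 of the most induced members are shown because they hold the letters that interferon-activated transcription factors are known to bind. The rule took the 3 called members of the type I list with the largest increase whose 150 bases before the RefSeq transcript start hold, on either strand, GAAA followed by any 2 bases and a further GAAA. They are Ifit3, Rsad2 and Ifit1, which rose from 3.32 and 7.26, 9.36 and 10.2 and 5.51 and 9.99 CPM to 99.2 and 126, 167 and 244 and 142 and 169 CPM, with log2 fold changes of 4.60 (SE 0.49), 4.57 (SE 0.487) and 4.51 (SE 0.476). Ifit1 and Ifit3 bind viral RNA or the proteins that sense it, and Rsad2 (viperin) makes a chain-terminating nucleotide. The sequences are from RefSeq on GRCm38.p6 (mm10), 5′ to 3′ on the strand of the gene, each ending at the base before the start, with the motif in capitals. Ifit3 lies at chr19:34583379-34583528 on the plus strand, Rsad2 at chr12:26456453-26456602 on the minus strand and Ifit1 at chr19:34640739-34640888 on the plus strand.
Ifit3: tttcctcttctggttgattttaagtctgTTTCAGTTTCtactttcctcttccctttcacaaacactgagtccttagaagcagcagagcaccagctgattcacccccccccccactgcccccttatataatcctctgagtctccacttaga
Rsad2: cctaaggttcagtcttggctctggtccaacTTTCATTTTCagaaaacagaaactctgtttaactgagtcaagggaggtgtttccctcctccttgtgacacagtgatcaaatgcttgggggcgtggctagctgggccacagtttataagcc
Ifit1: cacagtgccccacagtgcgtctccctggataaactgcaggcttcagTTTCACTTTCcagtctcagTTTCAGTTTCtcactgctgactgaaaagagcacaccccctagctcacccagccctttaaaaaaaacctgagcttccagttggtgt
All 4 matches read TTTC, any 2 bases and TTTC, the motif on the opposite strand; they begin 122 bases before the start in Ifit3, 120 in Rsad2 and 104 and 85 in Ifit1. The motif was found in 9 of 29 type I list genes with a promoter in the RefSeq table (31.0%), in 9 of 17 of the interferon-gamma list (52.9%), in 197 of 10299 tested genes (1.91%) and in 499 of 27020 genes in all (1.85%). Among called genes it was found in 12.5% of 152 that rose over 8-fold and in 1.43% of 70 that fell over 8-fold. These are matches of letters and show no binding.

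Genes of the interferon-gamma response moved in the same way: 23 of 24 rose, 1 fell (0 without the second library labelled LPS knockout), and the median log2 fold change was 2.68. Over all tested genes 22% rose and 20.9% fell. Tgtp1, an immunity-related GTPase that attacks the vacuoles of intracellular pathogens, was at 1.42 and 1.61 CPM in the WT unstimulated libraries and 45 and 51.8 CPM in the libraries labelled LPS knockout (log2 fold change 5.17, SE 0.255, adjusted p 8.62e-05 in edgeR). Iigp1, of the same GTPase family, was at 0 and 0.62 against 16.4 and 33.4 CPM (log2 fold change 6.50, SE 0.874, adjusted p 0.00162 in edgeR). Gbp4, a guanylate-binding protein, was at 24.9 and 27.2 against 128 and 151 CPM (log2 fold change 2.60, SE 0.159, adjusted p 0.000143 in edgeR). The groups did not overlap in these GTPases, and the spread between the libraries labelled LPS knockout was widest for Iigp1. The member that fell was Ciita, the coactivator on which transcription of MHC class II depends, at 429 and 457 against 249 and 211 CPM (log2 fold change -0.76, SE 0.165, adjusted p 0.00671 in edgeR). Schlafen, Gbp, Tgtp and H2-Q genes have near-identical copies, and reads split between copies make their values uncertain.

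Inflammatory genes rose in part and Tnf fell. Of 23 tested inflammatory cytokines and NF-kB targets, 15 rose and 2 fell (median 1.41), against 22% and 20.9% of all tested genes. Without the second WT unstimulated or the first LPS knockout-labelled library 1 fell. Il1b, which encodes the pyrogenic cytokine interleukin-1 beta, was at 44.5 and 41.7 CPM in the WT unstimulated libraries and 604 and 578 CPM in the libraries labelled LPS knockout (log2 fold change 3.95, SE 0.205, adjusted p 8.62e-05 in edgeR). Il6, another pyrogenic cytokine, was at 9.06 and 7.01 against 33.8 and 34.7 CPM (log2 fold change 2.27, SE 0.252, adjusted p 0.000525 in edgeR). For both, the libraries within a group were close and the groups far apart. Il12b, the shared subunit of interleukins 12 and 23, was already high at baseline, at 809 and 511 CPM against 1234 and 995 CPM (log2 fold change 0.93, SE 0.231, adjusted p 0.0132 in edgeR). Saa3, an acute-phase protein, was at 1.01 and 0.31 against 38.3 and 86.4 CPM (log2 fold change 6.71, SE 0.776, adjusted p 0.000966 in edgeR), and the libraries labelled LPS knockout differed from each other by more than they did for the cytokines. Nos2, the inducible nitric oxide synthase, was at 0.592 and 0.31 against 52.2 and 45.4 CPM (log2 fold change 6.90, SE 0.438, adjusted p 0.000191 in edgeR). Il10, which encodes an anti-inflammatory cytokine, was at most 0.536 CPM in the libraries labelled LPS knockout and did not pass (log2 fold change 0.51, SE 0.688).

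Tnf, the cytokine tumor necrosis factor, was at 15.9 and 19.7 CPM in the WT unstimulated libraries and 8.28 and 9.17 CPM in the libraries labelled LPS knockout (log2 fold change -0.85, SE 0.203, adjusted p 0.0101 in edgeR). Both latter libraries were below both former ones. WT BMDCs given LPS held 22.1 and 17 CPM and did not differ from baseline by this test (log2 fold change 0.34, edgeR adjusted p = 0.207). The direct difference between the libraries labelled LPS knockout and the WT LPS libraries was -1.19 (SE 0.203), with an unadjusted p of 0.000282 and an edgeR adjusted p of 0.166, so it did not pass either. Tnfaip2, a gene first found as induced by Tnf, was the other member that fell (728 and 969.5 against 399 and 402 CPM, log2 fold change -0.90).

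The promoters of the inflammatory list were searched for the letters GGG, then any 2 bases, then TTCC or TTTCC, on both strands, forms of the site that NF-kB dimers bind. Only 3 members hold such letters within 150 bases before the start, so all of them are shown. They are Marco, a scavenger receptor for bacteria, Il6, and Ebi3, a subunit of interleukins 27 and 35. By size of increase they rank 4, 8 and 15 among the 15 members that rose. Marco lies at chr1:120505025-120505174 on the minus strand, Il6 at chr5:30012964-30013113 on the plus strand and Ebi3 at chr17:55952473-55952622 on the plus strand (RefSeq, GRCm38.p6), and the match is in capitals.
Marco: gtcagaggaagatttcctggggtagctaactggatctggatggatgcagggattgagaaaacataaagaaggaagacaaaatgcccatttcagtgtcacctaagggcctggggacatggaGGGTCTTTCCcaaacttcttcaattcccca
Il6: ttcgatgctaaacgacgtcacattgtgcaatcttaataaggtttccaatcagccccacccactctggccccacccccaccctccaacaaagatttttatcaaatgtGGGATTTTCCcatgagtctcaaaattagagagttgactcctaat
Ebi3: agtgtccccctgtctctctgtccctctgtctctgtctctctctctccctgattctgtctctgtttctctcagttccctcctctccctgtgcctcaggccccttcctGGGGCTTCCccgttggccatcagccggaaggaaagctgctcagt
The matches begin 30 bases before the start in Marco and 44 bases before it in Il6 and Ebi3. Marco rose from 0.178 and 0.744 to 4.6 and 3.75 CPM (log2 fold change 3.35, SE 0.585) and Ebi3 from 14.3 and 22.8 to 26.2 and 28.7 CPM (0.75, SE 0.218). A match was found in 3 of 18 members of the list with a promoter (16.7%), in 5.93% of tested genes, and in 5.92% of the genes that rose over 8-fold.

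NF-kB subunits and their feedback inhibitors rose modestly and together, 15 of 18 with 0 lower and a median of 0.90. Over all tested genes 22% rose and 20.9% fell. Rel, the c-Rel subunit, was at 681 and 652 CPM in the WT unstimulated libraries and 1298 and 1309 CPM in the libraries labelled LPS knockout (log2 fold change 1.15, SE 0.112, adjusted p 0.000286 in edgeR). Relb, the subunit of the alternative pathway, was at 814 and 660.0 against 1284 and 1296 CPM (log2 fold change 0.98, SE 0.14, adjusted p 0.00105 in edgeR). Bcl3, a nuclear regulator of NF-kB, was at 77.1 and 68.2 against 179.7 and 193 CPM (log2 fold change 1.54, SE 0.15, adjusted p 0.000286 in edgeR). These changes were small next to those of the interferon genes above, and the groups did not overlap in any of the 3. Of 14 SOCS and DUSP genes, which end cytokine and MAP kinase signals, 9 rose and 3 fell (1 without the second WT unstimulated library or without either library labelled LPS knockout). Cish, an inhibitor of STAT5 signalling, rose from 2.61 and 4.71 to 20.9 and 25.6 CPM (log2 fold change 2.85, SE 0.269, adjusted p 0.000278 in edgeR). Dusp5, a phosphatase of nuclear ERK, rose from 318 and 313 to 536 and 538 CPM (log2 fold change 0.95), and Dusp6, its cytoplasmic counterpart, fell from 52.2 and 80.7 to 28.1 and 21.7 CPM (-1.23).

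Genes of dendritic cell maturation rose as well, where 22% of all tested genes rose and 20.9% fell. Of 29 tested genes of the mature migratory program, 23 rose and 1 fell (0 without the first WT unstimulated or the second LPS knockout-labelled library, median 1.03), and of 11 costimulatory ligands 6 rose and 2 fell (median 0.94). Cd86, a ligand of CD28 on T cells, was at 85.1 and 90.5 CPM in the WT unstimulated libraries and 265 and 217 CPM in the libraries labelled LPS knockout (log2 fold change 1.64, SE 0.131, adjusted p 0.000191 in edgeR). Tnfsf4, the OX40 ligand, was at 9.83 and 9.18 against 136 and 105 CPM (log2 fold change 3.84, SE 0.213, adjusted p 0.000135 in edgeR). Cd40, which receives the signal of helper T cells, was at 112 and 131 against 187 and 171 CPM (log2 fold change 0.74, SE 0.146, adjusted p 0.00438 in edgeR). The groups did not overlap in any of these, and the increase of Tnfsf4 was the largest of the costimulatory list. Of the ligands that fell, Cd48, which binds CD2 or CD244, was at 52.7 and 72.4 against 25.1 and 29.5 CPM (log2 fold change -1.01, SE 0.161, adjusted p 0.00167 in edgeR). Icosl, the ligand of ICOS, was the other, at 217 and 236 against 139.8 and 109.6 CPM (log2 fold change -0.68, SE 0.127, adjusted p 0.00326 in edgeR). For Cd86 and Tnfsf4 the libraries labelled LPS knockout were above both WT LPS libraries, which held 161 and 165 and 76 and 63.3 CPM. Of the 11 ligands 7 were above both WT LPS libraries and 0 below both, against 25.2% and 20.9% of all tested genes. The differences were 0.54 (SE 0.127) for Cd86 and 0.77 (SE 0.184) for Tnfsf4 on the log2 scale, with edgeR adjusted p-values of 0.276 and 0.277.

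**Figure D3:**
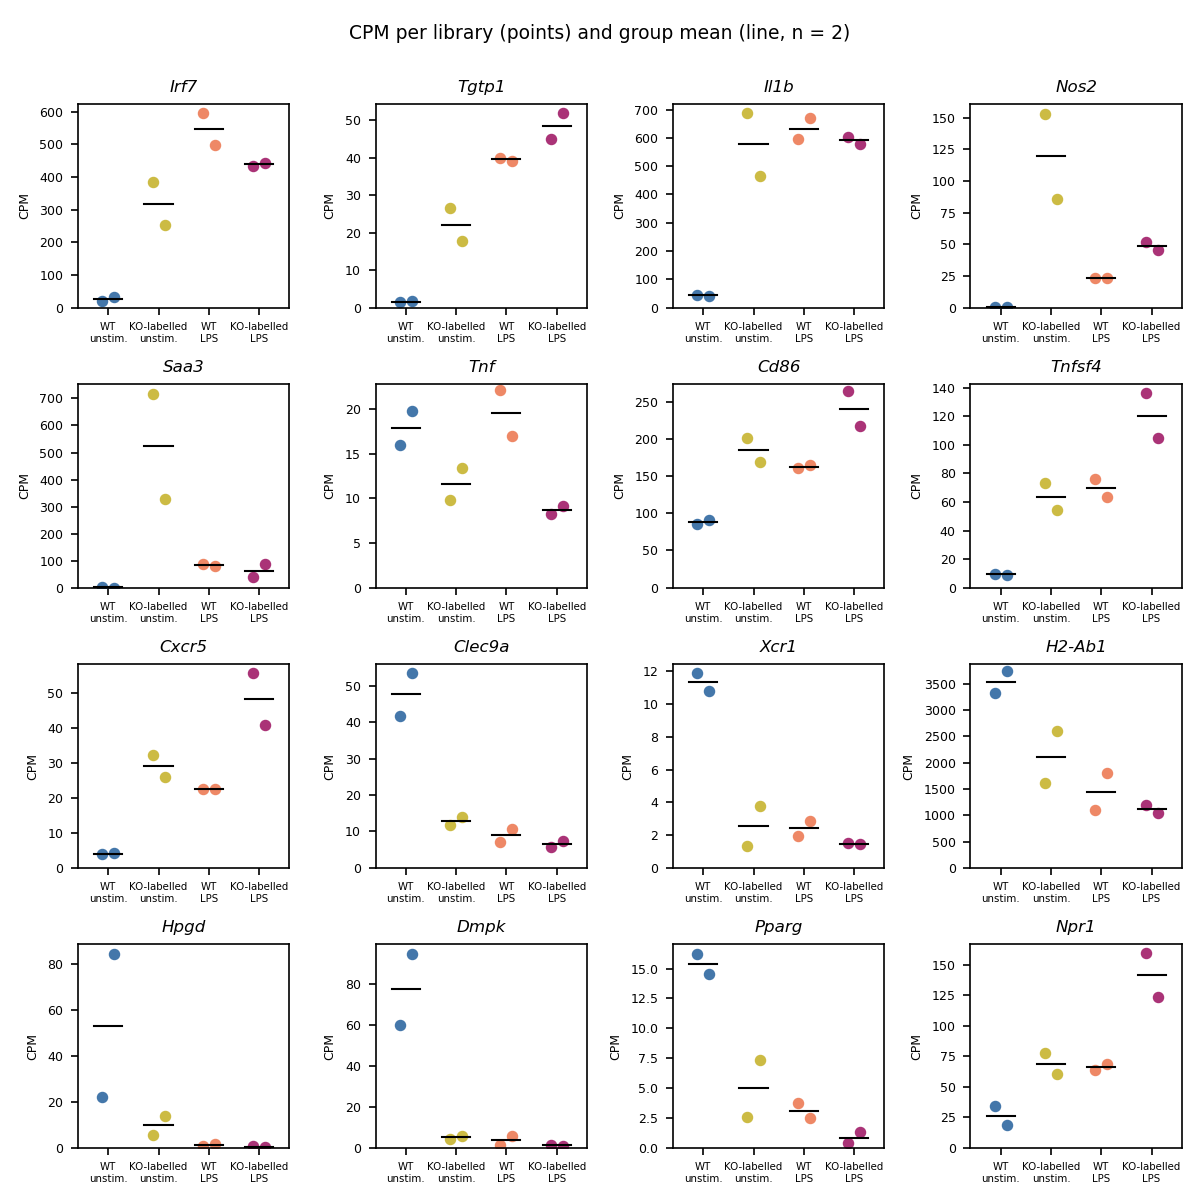
CPM of 16 genes in each of the 8 BMDC libraries (points), with the mean of the 2 libraries of a group as a line; all vertical axes are linear and start at 0. The libraries labelled LPS knockout (right) and WT unstimulated (left) do not overlap in any panel, and the unstimulated libraries labelled knockout lie on the side of the LPS libraries in most of them.

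Chemokine receptors changed in both directions. Of 13 tested, 6 rose and 4 fell (median 0.31), against 22% and 20.9% of all tested genes. Ccr7, which guides mature dendritic cells to lymph nodes, was among the highest-counted genes at baseline, at 3755 and 3034 CPM, and was at 5723 and 6537 CPM in the libraries labelled LPS knockout (log2 fold change 1.03, SE 0.169, adjusted p 0.00189 in edgeR). Cxcr5, the receptor of the B cell follicle chemokine CXCL13, was at 3.97 and 4.09 against 55.6 and 40.7 CPM (log2 fold change 3.75, SE 0.199, adjusted p 8.62e-05 in edgeR). Its WT LPS libraries held 22.5 and 22.4 CPM, below both libraries labelled LPS knockout, with a log2 difference of 1.07 (SE 0.17, unadjusted p = 0.000161, edgeR adjusted p = 0.166). Cxcr4, the receptor of CXCL12, was at 114 and 83.5 against 287 and 255 CPM (log2 fold change 1.63, SE 0.213, adjusted p 0.000952 in edgeR). Cxcr3, the receptor of the interferon-induced chemokines, was low and fell further, from 3.55 and 4.47 to 0.518 and 0.238 CPM (log2 fold change -3.20, SE 0.494, adjusted p 0.00146 in edgeR). Of 20 chemokine ligands 7 rose and 2 fell (4 without the first WT unstimulated library), against the same shares of all tested genes. Cxcl10, a ligand of CXCR3, rose from 2.55 and 6.64 to 53.8 and 71.9 CPM (log2 fold change 3.96, SE 0.462, adjusted p 0.000994 in edgeR), and Ccl5, a chemokine that attracts T cells, from 624 and 553 to 1409 and 1394 CPM (log2 fold change 1.43). Ccl9 and Ccl6, chemokines of myeloid cells, fell from 86.1 and 137 to 13.4 and 20.4 CPM (-2.54) and from 25.6 and 26.3 to 5.12 and 9.47 CPM (-1.65).

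Of 19 tested checkpoint and suppressive genes, 9 rose and 5 fell, against 22% and 20.9% of all tested genes. Cd274, which encodes PD-L1, was at 284 and 188 CPM in the WT unstimulated libraries and 675 and 832 CPM in the libraries labelled LPS knockout (log2 fold change 1.85, SE 0.237, adjusted p 0.000861 in edgeR). Cd200, the ligand of an inhibitory receptor of myeloid cells, was at 104 and 80 against 327 and 322 CPM (log2 fold change 1.99, SE 0.186, adjusted p 0.000286 in edgeR), while that receptor, Cd200r1, was at 28 and 38.5 against 5.75 and 10.2 CPM (log2 fold change -1.87, SE 0.307, adjusted p 0.00233 in edgeR). Ligand and receptor thus changed in opposite directions, with no overlap between groups in either. Vsir, the checkpoint protein VISTA, was at 224 and 178 against 105 and 103 CPM (log2 fold change -0.77, SE 0.157, adjusted p 0.00508 in edgeR). Cd274, Il1b, Bcl3, Ciita, Cxcr5 and Vsir each overlap another tested gene in the annotation, so part of their reads may belong to it. The same holds for Slc16a3, Tbxas1, Wfdc9, F2rl2, Hexa, Nr1h3, Prkg1, Pde6d, Acaca, Pdia3 and Zbtb46, which are described below.

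The 2 arms of antigen presentation moved apart. Of 23 tested MHC class I genes, which present peptides from the cytosol, 19 rose and 2 fell (median 0.75). The shares over all tested genes were 22% and 20.9%. Without the second WT unstimulated library or either library labelled LPS knockout 1 fell. H2-Q6 and H2-Q4, nonclassical class I molecules, were at 440.2 and 343 and 290.1 and 237 CPM in the WT unstimulated libraries and 1231 and 1371 and 712 and 803 CPM in the libraries labelled LPS knockout, with log2 fold changes of 1.91 (SE 0.196) and 1.70 (SE 0.175). H2-Q10, of the same family, was at 0.592 and 0.558 against 40 and 44.2 CPM (log2 fold change 6.35, SE 0.417, adjusted p 0.000191 in edgeR). The members that fell were the chaperones Calr (757 and 852 against 383 and 419.5 CPM, log2 fold change -0.82, SE 0.144, adjusted p 0.00246 in edgeR) and Pdia3 (449 and 535 against 306 and 312 CPM, log2 fold change -0.49), which serve many glycoproteins of the endoplasmic reticulum. Of 16 MHC class II genes, which present peptides from endosomes, 2 rose and 9 fell (median -0.80), against the same shares. Without the second library labelled LPS knockout, 5 fell. H2-Ab1, the class II beta chain, was at 3325 and 3739 against 1187 and 1041 CPM (log2 fold change -1.49, SE 0.275, adjusted p 0.00393 in edgeR). H2-DMb1, which loads peptides, was at 223 and 304 against 77.8 and 85.6 CPM (log2 fold change -1.51, SE 0.225, adjusted p 0.00171 in edgeR). Marchf1, the ubiquitin ligase that removes class II from the surface, was at 77.6 and 99.7 against 29.9 and 40.3 CPM (log2 fold change -1.15, SE 0.167, adjusted p 0.00118 in edgeR). The pair that rose were the endosomal enzymes Lgmn (813 and 659 against 1281 and 1406 CPM) and Ifi30 (504 and 385 against 632 and 717 CPM), a protease and a thiol reductase.

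Markers of conventional dendritic cell type 1 (cDC1) had the lowest median of the 35 lists, -2.27. Of 17 genes 11 were lower and 3 higher, against 20.9% and 22% of all tested genes. In WT BMDCs given LPS, against the same baseline, 12 were lower and 3 higher, with a median of -1.98. Over all tested genes 17.6% fell and 20% rose there. These cells take up dead cells and present their antigens to CD8 T cells. Clec9a, their receptor for dead cells, was at 41.7 and 53.5 CPM in the WT unstimulated libraries and 5.75 and 7.45 CPM in the libraries labelled LPS knockout (log2 fold change -2.67, SE 0.229, adjusted p 0.000226 in edgeR). Xcr1, the receptor of the chemokine XCL1, was at 11.9 and 10.8 against 1.5 and 1.43 CPM (log2 fold change -2.77, SE 0.432, adjusted p 0.00156 in edgeR). Tlr3, the receptor of double-stranded RNA, was at 48.7 and 43.9 against 4.31 and 6.55 CPM (log2 fold change -2.91, SE 0.284, adjusted p 0.000342 in edgeR). Septin3, a septin of the cytoskeleton, was at 54.9 and 45 against 2.47 and 2.8 CPM (log2 fold change -4.07, SE 0.548, adjusted p 0.00164 in edgeR). In these 4 genes each library labelled LPS knockout was at a fraction of both baseline libraries. The transcription factor Irf8, which specifies cDC1, went the other way, from 1338 and 1364 to 2035 and 2174 CPM (log2 fold change 0.82, SE 0.153, adjusted p 0.00337 in edgeR). Ifi205, an interferon-induced gene of the same list, rose from 29 and 29.9 to 45.9 and 47.2 CPM (log2 fold change 0.84).

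Of 15 markers of type 2 conventional dendritic cells, 4 fell and 2 rose (median -0.68), against 20.9% and 22% of all tested genes. The number that fell is thus near that over all genes. The lectin receptor Cd209a was at 4.44 and 11.2 CPM in the WT unstimulated libraries and 0.115 and 0 CPM in the libraries labelled LPS knockout, with 255 and 2 counts per group, so that the baseline was 132-fold higher with a 95% exact counting interval of 36.2 to 1100. Clec10a, a galactose-binding lectin, was at 7.11 and 13.1 against 1.03 and 0.596 CPM (log2 fold change -3.43, SE 0.684, adjusted p 0.00609 in edgeR). Irf4, a transcription factor of these cells, was at 62 and 54.1 against 86.3 and 73.8 CPM (log2 fold change 0.64, SE 0.116, adjusted p 0.00292 in edgeR), against 49.3 and 49 CPM in the WT LPS libraries, a log2 difference of 0.68 (SE 0.117, unadjusted p = 0.000285, edgeR adjusted p = 0.166). Of 17 core dendritic cell genes 7 rose and 6 fell (3 without the second library labelled LPS knockout). Zbtb46, the transcription factor that marks conventional dendritic cells, rose from 134 and 124 to 238 and 254 CPM (log2 fold change 1.11, SE 0.128, adjusted p 0.000488 in edgeR), and Spi1, which encodes PU.1, fell from 426 and 496 to 259 and 272 CPM (log2 fold change -0.62, SE 0.135, adjusted p 0.00696 in edgeR).

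Of 26 Toll-like receptors and their adaptors, 7 were higher and 7 lower, near the 22% and 20.9% of all tested genes. Apart from Tlr3, Tlr12, a receptor of profilin from parasites, fell from 55.4 and 56.8 to 17.9 and 19.3 CPM (log2 fold change -1.41, SE 0.152, adjusted p 0.000391 in edgeR), while the adaptors Traf6 and Ticam1 rose from 141 and 138 to 202 and 203 CPM (log2 fold change 0.71) and from 43.8 and 45.8 to 56.2 and 58 CPM (0.53). Scaled by library size alone, 11 members fell. Among 19 immediate early genes 9 fell and 5 rose (median -0.90). Egr2, a zinc finger factor induced by growth signals, was at 23.1 and 17.1 CPM in the WT unstimulated libraries and 1.61 and 1.37 CPM in the libraries labelled LPS knockout (log2 fold change -3.57, SE 0.494, adjusted p 0.0012 in edgeR). Myc, a growth-promoting transcription factor, was at 34.9 and 42.6 against 9.78 and 7.45 CPM (log2 fold change -1.99, SE 0.267, adjusted p 0.000937 in edgeR). Fosb, a subunit of AP-1, was at 17 and 91.7 against 2.24 and 1.97 CPM (log2 fold change -4.49, SE 1.31, adjusted p 0.0309 in edgeR). The WT unstimulated libraries differed widely for Fosb. Nr4a2, an orphan nuclear receptor, rose from 85.7 and 72.3 to 192 and 201 CPM (log2 fold change 1.49, SE 0.119, adjusted p 0.000191 in edgeR). The count that fell was 4 in place of 9 without either library labelled LPS knockout, without the second WT unstimulated library or without the filter on low counts.

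Genes of prostaglandin and leukotriene metabolism fell in their majority, 12 of 21, with 5 higher and a median of -0.999. Over all tested genes 20.9% fell and 22% rose. Hpgd, the enzyme that inactivates prostaglandin E2, had the largest decrease of the well-expressed named genes. It was at 22 and 84.5 CPM in the WT unstimulated libraries, which differed widely, and at 0.863 and 0.357 CPM in the libraries labelled LPS knockout (log2 fold change -6.23, SE 0.937, adjusted p 0.00245 in edgeR). Hpgds, which makes prostaglandin D2, was at 172 and 219.9 against 34.5 and 25.1 CPM (log2 fold change -2.54, SE 0.36, adjusted p 0.00198 in edgeR). Tbxas1, the thromboxane synthase, was at 101 and 139.9 against 7.59 and 10.4 CPM (log2 fold change -3.56, SE 0.389, adjusted p 0.000787 in edgeR). Ptges, which makes prostaglandin E2, rose from 0.888 and 0.93 to 6.44 and 5.72 CPM (log2 fold change 2.91, SE 0.348, adjusted p 0.000555 in edgeR), and Ptger4, a receptor of prostaglandin E2, from 192 and 200.5 to 344 and 328 CPM (log2 fold change 0.96, SE 0.107, adjusted p 0.000436 in edgeR). The enzyme that makes prostaglandin E2 and a receptor for it were thus higher, and the enzyme that inactivates it lower, in both libraries labelled LPS knockout than in both at baseline. LPS in WT cells gave a similar picture, with 12 members lower, 5 higher and a median of -0.61. Raw counts of the WT unstimulated, WT LPS and LPS knockout-labelled pairs follow in this order. For Ptges they were 15 and 15, 187 and 119, 112 and 96. Hpgd had 372 and 1362, 15 and 29, 15 and 6. Ptger4 had 3239 and 3232, 4803 and 5030, 5973 and 5514. Between both LPS groups 0 members of this list passed in edgeR.

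Other large decreases fell outside the lists or crossed them. Dmpk, a kinase best known from muscle, was at 60.1 and 94.5 CPM in the WT unstimulated libraries and 1.61 and 0.834 CPM in the libraries labelled LPS knockout (log2 fold change -5.79, SE 0.623, adjusted p 0.000756 in edgeR). Mamdc2, a proteoglycan, was at 85.2 and 31.9 against 1.09 and 1.07 CPM (log2 fold change -5.58, SE 0.844, adjusted p 0.00253 in edgeR). Hgfac, a protease that activates hepatocyte growth factor, was at 21 and 19.5 against 1.32 and 0.238 CPM (log2 fold change -4.50, SE 0.541, adjusted p 0.000712 in edgeR). F2rl2, a thrombin receptor, was at 17.7 and 21.4 against 0.748 and 1.07 CPM (log2 fold change -4.24, SE 0.624, adjusted p 0.00181 in edgeR). Ppbp, a platelet and myeloid chemokine, was at 10.6 and 30.6 against 0.575 and 0.774 CPM (log2 fold change -4.73), and Lmo1, a transcriptional cofactor, at 8.41 and 18.1 against 0.92 and 0.298 CPM (-4.23). All of these were within a few CPM in the libraries labelled LPS knockout. Among the largest increases, Gstt1, a glutathione transferase, went from 0.0592 and 0.31 to 17.9 and 23.1 CPM (log2 fold change 6.94, SE 0.633, adjusted p 0.000357 in edgeR) and Wfdc9, a gene of the protease inhibitor family, from 0.118 and 0.186 to 13.1 and 16.4 CPM (log2 fold change 6.72, SE 0.436, adjusted p 0.000177 in edgeR). The largest, of Mgarp, a mitochondrial protein, was of another kind. It had 2 counts in the WT unstimulated and 509 in the LPS knockout-labelled libraries, a ratio of 246 with a 95% exact counting interval of 67.7 to 2030. Its CPM were 21.2 and 8.4 in the libraries labelled LPS knockout and 0.224 and 0.231 in the WT LPS libraries, whose log2 difference of 5.95 (SE 0.931) had an unadjusted p of 0.000307 and an edgeR adjusted p of 0.166.

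Glycolytic genes rose in the libraries labelled LPS knockout, where 22% of all tested genes rose and 20.9% fell. Of 23 tested members 14 rose and 3 fell (1 without the first library labelled LPS knockout), with a median of 0.78. In WT BMDCs given LPS, against the same baseline, 3 rose and 5 fell, with a median of -0.06 (20% of all tested genes rose there and 17.6% fell). Slc16a3, the exporter of lactate, was at 67.4 and 54.8 CPM in the WT unstimulated libraries, 109 and 106 CPM in the WT LPS libraries and 508 and 294 CPM in the libraries labelled LPS knockout (log2 fold change 2.89, SE 0.367, adjusted p 0.00133 in edgeR). The following genes were singled out after their values were seen. Tpi1, triosephosphate isomerase, was at 152 and 137, 134 and 149.7 and 906 and 474 CPM in the same order (log2 fold change 2.43, SE 0.375, adjusted p 0.00271 in edgeR). Pfkl, a phosphofructokinase, was at 57.5 and 66.1, 54.2 and 69.7 and 409.5 and 204 CPM (log2 fold change 2.49, SE 0.409, adjusted p 0.00349 in edgeR), and Gapdh at 1335 and 1567, 1098 and 1286 and 3682 and 2270.0 CPM (log2 fold change 1.22, SE 0.228, adjusted p 0.00369 in edgeR). Each time both libraries labelled LPS knockout were above all other libraries of these 3 groups, and the first of them was well above the second. The glycolytic list summed to 8190 to 8699 CPM in the WT unstimulated and 9208 to 9651 CPM in the WT LPS libraries. It summed to 9728 to 12370 CPM in the unstimulated libraries labelled knockout and 13680 to 19220 CPM in those labelled LPS knockout. Slc16a3 had 3909 and 2281 counts in the unstimulated libraries labelled knockout, against 1943 and 1843 in the WT LPS libraries. Hexokinase 1, Hk1, rose from 127 and 109 to 228 and 185 CPM (log2 fold change 0.98, SE 0.143, adjusted p 0.00117 in edgeR) and to 187 and 179 CPM in the WT LPS libraries. The members that fell were the lactate importer Slc16a1 (16.9 and 14.6 against 7.59 and 7.68 CPM, log2 fold change -0.86), the regulatory kinase Pfkfb4 (25.3 and 27 against 13.2 and 16.5 CPM, -0.63) and the enolase Eno2 (-0.46).

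Set directly against the WT LPS libraries, the libraries labelled LPS knockout were higher in 17 of the 23 glycolytic genes without overlap and lower in 4, against 25.2% and 20.9% of all tested genes. The median log2 difference was 1.18, against -0.01 over all genes, and 17 members (73.9%) reached an unadjusted p under 0.05, against 10.2% of all genes. None of them passed in edgeR, where the smallest adjusted p was 0.166; DESeq2 called 16 of them, against 1.3% of the genes it tested, and limma-voom 0. Aldoc, an aldolase, had the smallest p. It was at 29.4 and 30.2 CPM in the WT unstimulated, 2.19 and 4.85 CPM in the WT LPS and 24.1 and 15.3 CPM in the LPS knockout-labelled libraries, a log2 difference of 2.46 (SE 0.338) between the last pair of groups. Slc2a3, a glucose transporter, was at 22.7 and 33.2, 6.56 and 7.67 and 35 and 16.5 CPM. For both genes the level fell with LPS in WT cells. Aldoc was below both baseline libraries in both libraries labelled LPS knockout. Slc2a3 was above both baseline libraries in the first of them and below both in the second. The total changes, -0.42 and 0.061, did not pass. The size rests in part on the first library labelled LPS knockout: the median difference from WT LPS was 0.80 without it and 1.49 without the second, and 0 and 13 members passed, the latter against 0.478% of all genes tested there. In that first library 18 of the 23 genes were higher than in the second (78.3%), against 53.5% of all tested genes, and the monocyte and macrophage sum was 3089 against 5738 CPM. The part of that difference in the result was not tested.

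**Figure D4:**
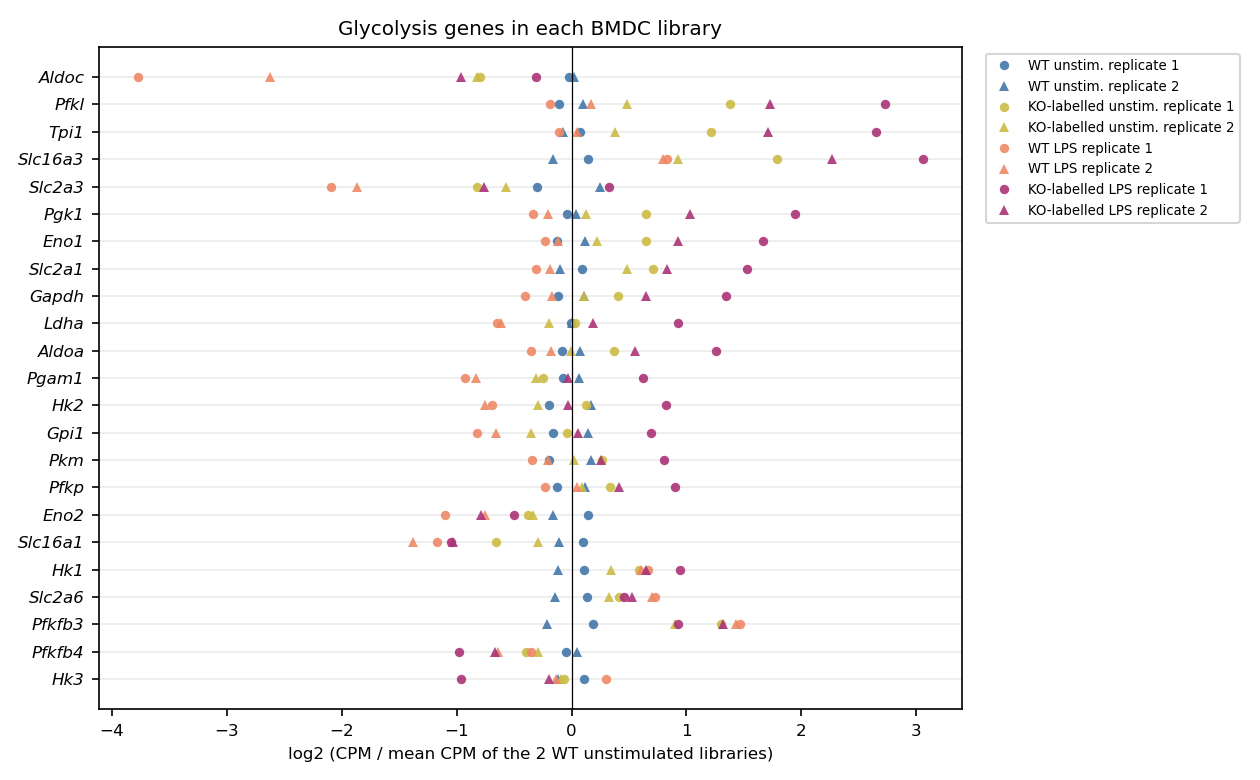
Level of the 23 tested glycolytic genes in each BMDC library as log2 of its CPM over the mean CPM of the 2 WT unstimulated libraries; circles are replicate 1 and triangles replicate 2 of each group. The libraries labelled LPS knockout (purple) lie to the right of the WT LPS libraries (orange) in 17 of 23 genes, and replicate 1 lies further right than replicate 2 in 18.

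Among lipid, lysosomal and antioxidant genes more fell than rose, where 20.9% of all tested genes fell and 22% rose. Of 17 genes of lipid uptake and efflux, 7 fell and 2 rose (median -0.48). The number that rose was 0 without the second WT unstimulated library or the second library labelled LPS knockout, and 1 without either unstimulated library labelled knockout. Pparg, the nuclear receptor that controls fat uptake, was at 16.2 and 14.5 CPM in the WT unstimulated libraries and 0.403 and 1.31 CPM in the libraries labelled LPS knockout (log2 fold change -3.98, SE 0.604, adjusted p 0.00175 in edgeR). Scarb1, a lipoprotein receptor, was at 77.3 and 116 against 29.7 and 30.1 CPM (log2 fold change -1.51, SE 0.205, adjusted p 0.00106 in edgeR). Nr1h3, the sterol-sensing receptor LXR alpha, rose from 19.6 and 14.8 to 21.9 and 40.3 CPM (log2 fold change 1.03, SE 0.336, adjusted p 0.043 in edgeR), close to the threshold. Of 28 lysosomal genes 16 fell and 2 rose (1 without the second library labelled LPS knockout, median -0.78). Hexa, a subunit of the enzyme that degrades gangliosides, fell from 392 and 434 to 120.0 and 138 CPM (log2 fold change -1.50, SE 0.183, adjusted p 0.000659 in edgeR), while Npc2, a carrier of cholesterol, rose from 879 and 845 to 1856 and 1926 CPM (log2 fold change 1.31, SE 0.146, adjusted p 0.00043 in edgeR). In WT BMDCs given LPS, 8 of the 28 lysosomal genes fell and 4 rose, against 17.6% and 20% of all tested genes there. Many of these genes are abundant in macrophages, whose marker sum was 3089 to 5738 CPM in the libraries labelled LPS knockout and 5979 to 9411 CPM in the WT LPS libraries, and the part of that difference was not tested.

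Of 19 antioxidant genes controlled by NRF2, 13 fell and 2 rose (median -0.70). Gclc, the limiting enzyme of glutathione synthesis, had a mean of 426 ± 49.1 CPM (SD, n = 2) in the WT unstimulated libraries and 97 ± 4.26 CPM (SD, n = 2) in the libraries labelled LPS knockout (log2 fold change -1.96, SE 0.263, adjusted p 0.00131 in edgeR). Gstm1, a glutathione transferase, was at 104 and 120.0 against 25.4 and 28.6 CPM (log2 fold change -1.87, SE 0.22, adjusted p 0.000661 in edgeR). Keap1, which holds NRF2 inactive, rose from 81.2 and 90.7 to 119.8 and 119.7 CPM (log2 fold change 0.66, SE 0.118, adjusted p 0.00278 in edgeR). Its direction was opposite to that of the 13 members that fell. Gstt1, also of this list and described above, rose far more (log2 fold change 6.94). Of 27 genes of sterol and fatty acid synthesis 12 fell and 1 rose. Dhcr7, of the last step of cholesterol synthesis, fell from 42.2 and 46.6 to 11.4 and 13 CPM (log2 fold change -1.68, SE 0.216, adjusted p 0.000731 in edgeR) and Acaca, acetyl-CoA carboxylase, from 74.2 and 80.1 to 32.7 and 29.4 CPM (log2 fold change -1.13), while Pmvk, of the mevalonate pathway, rose from 61.8 and 53 to 265 and 228 CPM (log2 fold change 2.28, SE 0.193, adjusted p 0.000244 in edgeR). Without the second WT unstimulated library 4 fell, and without the second library labelled LPS knockout 3. Genes of the respiratory chain hardly moved: of 26, 6 fell and 0 rose, against 20.9% and 22% of all tested genes. The number that fell was near the share over all genes, and the median was -0.17. The lowest was Cycs, cytochrome c, at 46.5 and 43.2 against 29.2 and 29.7 CPM (log2 fold change -0.43), and the count ranged from 0 without the second library labelled LPS knockout to 16 when scaled by library size alone.

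Genes that make or answer nitric oxide and cGMP, the messenger that PDE5A degrades, were followed by a list of 29, of which 17 were tested; 8 rose and 2 fell, against 22% and 20.9% of all tested genes. The number that fell was 0 without the second library labelled LPS knockout. It was 1 without the first, without the second WT unstimulated library, without either WT LPS library and by DESeq2. Npr1, the receptor guanylate cyclase for atrial natriuretic peptide, was at 34 and 18.4 CPM in the WT unstimulated libraries and 159.6 and 124 CPM in the libraries labelled LPS knockout (log2 fold change 2.61, SE 0.301, adjusted p 0.000878 in edgeR). The WT LPS libraries held 63.8 and 69 CPM, below both, with a log2 difference of 1.07 (SE 0.283, unadjusted p = 0.00687, edgeR adjusted p = 0.333). Npr2, the receptor for C-type natriuretic peptide, fell from 6.93 and 8.74 to 3.28 and 1.97 CPM (log2 fold change -1.40, SE 0.327, adjusted p 0.00918 in edgeR), and Prkg1, the cGMP-dependent kinase, from 13 and 11.6 to 6.04 and 7.68 CPM (log2 fold change -0.66, SE 0.231, adjusted p 0.0461 in edgeR). Of the phosphodiesterases, Pde4b and Pde4d, which degrade cAMP, rose from 302 and 224 to 444 and 474 CPM (log2 fold change 0.98, SE 0.162, adjusted p 0.00191 in edgeR) and from 20.4 and 17.5 to 34.6 and 32.8 CPM (log2 fold change 1.01, SE 0.128, adjusted p 0.00067 in edgeR). Pde1b (0.38), Pde3b (0.48), Pde4a (-0.092), Pde6d (0.26) and Pde10a (1.47) did not pass. Nos2 was at 23 and 23.3 CPM in the WT LPS libraries, again below both libraries labelled LPS knockout (52.2 and 45.4 CPM), with a log2 difference of 1.05 (SE 0.27, edgeR adjusted p = 0.317). Ass1, which recycles the arginine that Nos2 consumes, rose from 351 and 281 to 592 and 634 CPM (log2 fold change 1.13, SE 0.148, adjusted p 0.000731 in edgeR). Arg1, the competing arginase, was at 0.415 and 0.806 against 0.23 and 0.715 CPM and did not pass (log2 fold change -0.19, SE 0.702).

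Of 33 cell cycle and replication genes 9 fell and 0 rose, against 20.9% and 22% of all tested genes, and the median was -0.44. The number that fell is thus near that over all genes. Pcna, the replication clamp, was at 152 and 158 CPM in the WT unstimulated libraries and 90.2 and 85.5 CPM in the libraries labelled LPS knockout (log2 fold change -0.64, SE 0.112, adjusted p 0.00254 in edgeR). Cdt1, which licenses replication origins, was at 42.6 and 42.5 against 17.7 and 17.7 CPM (log2 fold change -1.09, SE 0.172, adjusted p 0.00159 in edgeR). The count was 4 without the second WT unstimulated library and 3 without the second library labelled LPS knockout. Of 24 genes of the unfolded protein and integrated stress response 12 fell and 2 rose. Atf6, a sensor of unfolded proteins, fell from 110.1 and 120.2 to 57 and 50.3 CPM (log2 fold change -0.92, SE 0.149, adjusted p 0.00182 in edgeR). By contrast Ern1, the sensor IRE1, rose from 64.9 and 63.3 to 84.1 and 77.5 CPM (log2 fold change 0.51).

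Among markers of other cell types, 5 of 28 tested monocyte and macrophage genes rose and 7 fell, near the 22% and 20.9% of all tested genes. The number that rose was 3 without the first WT unstimulated library and 8 without the first library labelled LPS knockout. Mrc1, the mannose receptor, fell from 14.2 and 11.8 to 1.73 and 3.04 CPM (log2 fold change -2.27, SE 0.341, adjusted p 0.0013 in edgeR), and Cd163, a haemoglobin scavenger receptor, from 113 counts to 1. Cd14, the LPS co-receptor, rose from 29.2 and 48.2 to 126 and 86.1 CPM (log2 fold change 1.64, SE 0.298, adjusted p 0.005 in edgeR). The Cd163 ratio was 117 with a 95% exact counting interval of 20.6 to 4660. Of 16 neutrophil genes 8 fell and 0 rose, among them Ltf, lactoferrin (17.6 and 22.2 against 4.43 and 2.68 CPM, log2 fold change -2.30, SE 0.293, adjusted p 0.000678 in edgeR), and the count was 4 or 5 without the second WT unstimulated library or without either library labelled LPS knockout. Of 18 T and NK cell genes 8 rose and 1 fell. The number that rose was 5 without the first library labelled LPS knockout and 2 among the genes left at a filter of 10 CPM. Gzmb, granzyme B, rose from 0.355 and 0.62 to 7.02 and 7.21 CPM (log2 fold change 4.03, SE 0.492, adjusted p 0.000592 in edgeR), and Cd28 fell from 28.1 and 40.5 to 7.25 and 4.59 CPM (log2 fold change -2.35, SE 0.485, adjusted p 0.00807 in edgeR). The defining T cell receptor subunit Cd3e did not pass (0.59), and the list summed to 322 to 480 CPM at baseline and 359 to 378 CPM in the libraries labelled LPS knockout. Hdc, the enzyme that makes histamine, rose from 1.12 and 1.3 to 14.9 and 11.8 CPM (log2 fold change 3.63, SE 0.379, adjusted p 0.000396 in edgeR) in a mast cell and basophil list of 9 of which 2 rose and 2 fell. Of the remaining lists, 6 of 15 plasmacytoid dendritic cell genes rose and 0 fell, 2 of 10 B cell genes fell and 0 rose, 2 of 17 fibroblast genes rose and 3 fell, and 2 of 8 progenitor genes rose and 1 fell. Left-out single libraries moved the numbers of these 4 lists and of the mast cell list by up to 3 genes, so no direction is read from them.

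Single genes were tested directly between the libraries labelled LPS knockout and the WT LPS libraries. Whether the former lie farther from the baseline than the latter was described by distances above and not tested. No gene (0%) passed in edgeR; 1330 (10.2%) had an unadjusted p under 0.05, and DESeq2 called 150 genes and limma-voom 0. Without the second library labelled LPS knockout 65 genes passed, without the filter on low counts 56. LPS in WT cells alone called 4910 genes (37.6%), 2609 higher and 2301 lower. With all libraries and the filter on low counts, edgeR thus called no single gene for the label under LPS. The total was also set against the sum of LPS in WT cells and of the label without stimulation, each against the same baseline. It departed from that sum in 585 genes (4.48%), 74 above (0.566%) and 511 below it (3.91%). For Irf7 the 2 effects were 4.56 and 3.69 against a total of 4.22, and for Il1b 4.07 and 3.85 against 3.95. This departure rests on the unstimulated libraries labelled knockout, which stood near the LPS libraries, and its count ranged from 58 to 1076 when single libraries were left out.

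**Figure D5:**
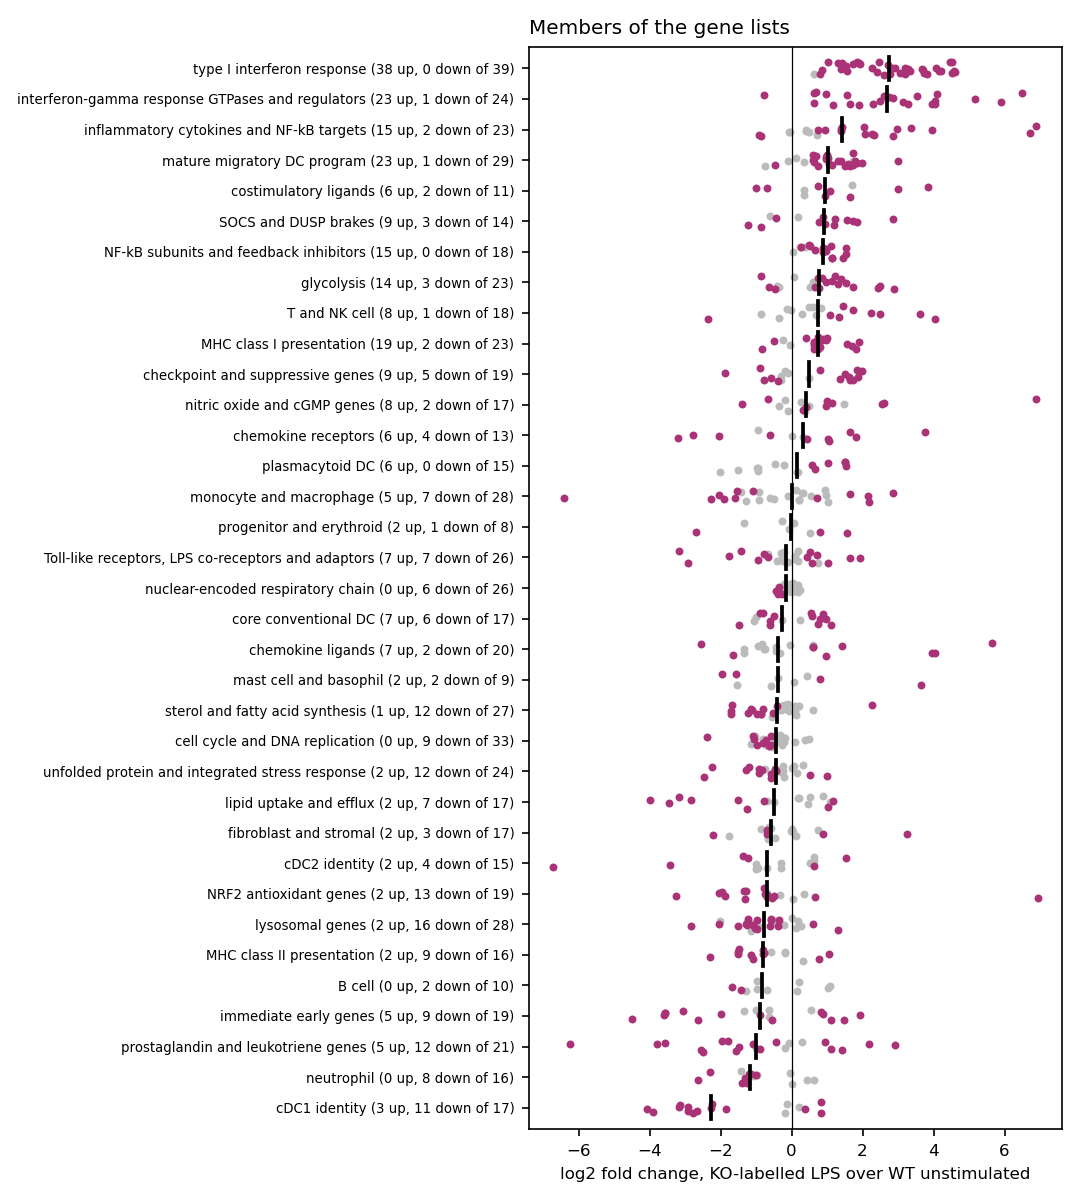
log2 fold change between the libraries labelled LPS knockout and the WT unstimulated libraries for every tested member of the 35 gene lists, ordered by list median (black bar); purple points passed at an adjusted p under 0.05 and grey points did not. The type I interferon list has the highest median (2.76) and the cDC1 list the lowest (-2.27).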

How the data were processed

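The RNA of 8 BMDC libraries (TruSeq kit, per the labels' protocols) was analysed from the table of raw counts per gene symbol that the authors deposited. The submitters' processing notes list mm10 as the build and, as tools, featureCounts 2.0.1, HISAT2 2.2.1 and fastp 0.12.4. The annotation, the strand setting and the handling of multiply mapped reads were not given in the sources used here, so reads of overlapping genes and close paralogs cannot be told apart. The extraction text of the labels speaks of another tissue. The 4 tumoral libraries were not analysed here. All columns were mapped by name, and 0 were left over.

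In R 4.3.3 with edgeR 4.0.16, filterByExpr (minimum count 10) kept 13072 genes holding 99.92 to 99.95% of the counts. TMM scaling, glmQLFit (robust) and glmQLFTest were run on all 8 libraries with a mean per group, with Benjamini-Hochberg adjustment over all tested genes and a threshold of 0.05. The biological coefficient of variation was 0.138 with 4 residual degrees of freedom. The SE is the log2 fold change divided by the root of F. Distances are root-mean-square differences of TMM-scaled log2 CPM with a prior count of 2, while CPM in the text use the library total alone. DESeq2 1.42.0 and limma 3.58.1 (voom) were alternatives, with other scalings, filters, a replicate block, glmTreat and single libraries left out. On simulated counts of the total comparison (12859 genes), 72% of 2-fold and 96% of 4-fold changes were recovered with 13 false calls. The simulation changed 100 genes per fold size, all at an average log2 CPM over 2, in the LPS knockout-labelled group alone. In the data 42.9% of tested genes were called, so these rates need not hold there. Counting intervals of ratios cover counting error only.

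The members and lists (35 lists, 706 symbols) were chosen with earlier results of these data known. Named genes were the 10 largest increases and 10 largest decreases at an average log2 CPM of 2 or more and with no overlap between groups, without predicted, unnamed, pseudo-, ribosomal and receptor segment genes. Added were from every list and in each direction the 2 members of lowest adjusted p, the nitric oxide and cGMP genes, and Pde5a, Il1b, Il6, Tnf, Il10, Il12b, Il27, Nos2, Arg1, Cd274, Cd86, Cd40, Ccr7, Xcr1, Zbtb46 and Saa3, 154 genes in all. The rule also asked for genes called between the libraries labelled LPS knockout and the WT LPS libraries, which gave 0. Samd9l, Eno2, Cd3e, Tpi1, Pfkl, Gapdh, Aldoc and Slc2a3 were named after their values were seen. Of the symbols, 31837 matched RefSeq (GRCm38.p6, the assembly of mm10), from which promoters and positions come. Sept3 and March1 were read as Septin3 and Marchf1. Identical counts were shared by 119 tested symbols, each with another symbol. Some genes that the rule names are not reported here. Of the named genes 23 overlap another tested gene.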

Additional observations from a re-analysis of the deposited data

Results flagged for a closer look

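In 585 genes the effect of LPS in the knockout-labelled libraries differed from its effect in WT libraries, by edgeR's test of the interaction at an adjusted p under 0.05. The same value is the departure of the total change from the sum of LPS in WT cells and the label without stimulation. It rests on the 2 unstimulated libraries labelled knockout, which lay nearer to the LPS libraries than to the WT unstimulated ones, and a cause was not tested. Among genes of the text, the total was below that sum, on the log2 scale, by the following differences. For interferon genes they were -4.03 (Irf7), -6.38 (Slfn1), -6.98 (Slfn4), -4.65 (Ifit1), -5.10 (Ifit3), -5.17 (Rsad2), -3.70 (Tgtp1), -5.33 (Iigp1), -1.26 (Gbp4), -3.66 (Cxcl10) and -1.60 (Ifi205). For inflammatory genes and regulators they were -10.17 (Saa3), -7.08 (Nos2), -3.97 (Il1b), -2.44 (Il6), -4.45 (Marco), -1.03 (Ccl5), -4.39 (Ptges), -3.65 (Hdc), -0.84 (Rel), -1.53 (Bcl3), -1.97 (Cish) and -0.88 (Nr4a2). For surface molecules and antigen presentation they were -2.08 (Tnfsf4), -0.91 (Cd40), -1.35 (Cd200), -1.80 (Cd274), -1.88 (Cxcr5), -1.40 (H2-Q4), -1.54 (H2-Q6), -6.05 (H2-Q10) and -1.01 (Ifi30). For others they were -4.58 (Arg1), -0.97 (Ass1), -6.29 (Gstt1), -0.91 (Npc2), -5.92 (Wfdc9) and -0.83 (Zbtb46).

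The total lay above the sum, after decreases with LPS in WT cells, for Aldoc (3.17), Slc2a3 (2.42), Ltf (2.16), Tlr12 (1.19) and Icosl (0.95). Saa3, Nos2 and Arg1 were highest in the unstimulated libraries labelled knockout, at 717 and 328, 153 and 86.1 and 9.87 and 6.6 CPM, above the 38.3 and 86.4, 52.2 and 45.4 and 0.23 and 0.715 CPM of the libraries labelled LPS knockout.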

How the results depend on the processing

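In the comparison of the libraries labelled LPS knockout with the WT unstimulated ones, the number of calls stayed within 1.5 times of 5604 in 18 of 20 alternatives. The 5347 calls without a filter, 4708 at 10 CPM, 5191 by DESeq2, 5588 by limma-voom and 5174 from the 4 libraries alone are among them. A test against a 2-fold change (glmTreat) called 730 genes, 471 higher and 259 lower. Leaving out single libraries gave 3723 to 5478 calls, 2046 to 2838 higher and 1668 to 2683 lower. The mean distance was 1.14 with a prior count of 0.5 and 0.949 with one of 5. Over 154 named genes, 68 kept direction and side of the threshold in all alternatives run. The sign turned, in each case without passing, when single libraries were left out, for Pde5a (-0.96 to 0.071), Pde4a (-0.20 to 0.011), Arg1 (-1.20 to 0.42, with 0.33 without the second WT unstimulated library), Il10 (-0.11 to 1.60) and the difference of Hk1 from WT LPS (-0.0019 to 0.279).

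Other comparisons moved more. LPS in WT cells called 518 genes by glmTreat and 2676 to 4831 with single libraries left out. The label under LPS called 0 genes, and 56 without a filter, 150 by DESeq2 and 0 to 65 with single libraries left out. The label without stimulation called 226 by glmTreat and 593 to 2717 with single libraries left out. LPS in knockout-labelled libraries called 0 genes (2800 at an unadjusted p under 0.05), and 22 with DESeq2 size factors, 21 with upper-quartile scaling, 24 with library size alone, 587 without a filter, 793 by DESeq2, 20 with 1 symbol per identical count set (added after seeing the data) and 0 to 615 with single libraries left out. The departure from the sum counted 948 without a filter, 1082 by DESeq2, 64 by glmTreat and 58 to 1076 with single libraries left out. The cause of these changes was not tested.

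With the replicate number as a block, 5562 genes were called in the total comparison, 2 for the label under LPS and 321 for LPS in knockout-labelled libraries, with 516 for the departure from the sum. The numbers are shared only by name: deviations of same-numbered libraries correlated at 0.128, 0.275 and -0.19 between WT unstimulated and the other groups, at 0.123 and -0.0762 between unstimulated knockout-labelled and the LPS groups and at -0.2 between the LPS groups, so the block pairs nothing known. With 2 libraries per group, a lone library left in a group is assumed to vary like the others, and small changes of weakly counted genes such as Pde5a are below what this depth can show.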
